A study of Mus musculus with 2 samples.

Results

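Junction genes were read out in cultured mouse epidermal keratinocytes as 40 named genes of desmosomes, adherens junctions, tight junctions and gap junctions out of 47719 genes in the table. The 40 were listed by name for their known place in a junction, with earlier results of these data known, and all 40 were found. They comprise 15 desmosome, 11 adherens junction, 10 tight junction and 4 gap junction genes. The study compared 1 library of the genotype Pp6fl/fl with 1 library of the genotype K5.Pp6fl/fl, so there is no spread between replicates and no test in what follows. Pp6 (Ppp6c) encodes the catalytic subunit of protein phosphatase 6; in the K5.Pp6fl/fl cells a recombinase driven by the keratin 5 promoter, a promoter of basal epidermal cells, deletes the floxed allele. The Pp6fl/fl cells carry the floxed allele without that recombinase. Cells of either genotype came from tails of C57BL/6J mice at 8 weeks of age and were grown for 3 days in Medium 154CF, a keratinocyte medium that is supplied without calcium. The calcium added and the number of mice behind each culture are not given in the labels.

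Keratinocytes are held together by several kinds of junction. Desmosomes join the keratin filaments of neighbouring cells through the cadherins called desmogleins and desmocollins and a plaque of desmoplakin, plakoglobin and plakophilins. Adherens junctions join the actin filaments through classical cadherins, catenins and nectins. Tight junctions, sealed by claudins and occludin, form a barrier in the granular layer, and gap junctions are channels of connexins between neighbouring cells. Many of these genes change as a cell moves up from the basal layer, and extracellular calcium is needed for cadherin adhesion.

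Claudin-1, claudin-4, cingulin, Epcam and nectin-4 transcripts were between 1.55-fold and 1.84-fold higher in the K5.Pp6fl/fl library, while most genes of the desmosome plaque, the catenins and the connexins lay close to equal. Corneodesmosin, desmocollin-2 and desmoglein-1b were the members of the desmosome with the clearest difference, at 1.37-fold to 1.52-fold. None of the 40 junction genes was 1.3-fold lower, and none of them was 2-fold apart by the rule used here. Of the 40 genes, 38 had a depth-scaled read count of at least 1 CPM in a library and are called expressed; Cldn23 and Tjp3 were below that.

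Folds divide the CPM of K5.Pp6fl/fl by that of Pp6fl/fl. Their 95% intervals reflect counting error alone: the reads carry no molecular identifiers, and separate cultures of a genotype would differ as well. Log2 ratios were taken after 0.5 CPM was added to both values. A gene was counted as past the 1.3-fold or the 2-fold rule when its log2 ratio reached that size, its larger value was at least 1 CPM and its interval excluded 1. By the 1.3-fold rule 10 of the 38 expressed junction genes were higher, where 6.46% of the 12325 expressed genes were, and 0 were lower, where 2.94% were. Since the list was drawn up with earlier results known, this is a description of the listed genes and no independent evidence of their direction. By the 2-fold rule 0 were higher and 0 lower, where 0.811% and 0.195% of expressed genes were. Intervals lay above 1 for 25 junction genes and below 1 for 4, against 16.6% and 17.4% of expressed genes. Abundant genes have narrow intervals, and 31 of the junction genes were at 50 CPM or more. Among these 31, 7 were past the 1.3-fold rule and higher, where 3.39% of the 4538 genes at that level were, and 0 were lower, where 0.992% were. Of the same 31, 20 had intervals above 1 and 4 below, where 21.8% and 26.3% did. The median log2 ratio was 0.12 over the 38 expressed junction genes and -0.01 over all expressed genes.

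In the table the authors deposited, 14 of the expressed junction genes had a false discovery rate (FDR) under 0.05 with a positive log2 fold change and 0 with a negative one, where 8.86% and 5.5% of expressed genes did. The same table marks none of the 40 as significant. Its p-values rest on 1 library per genotype.

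The Pp6fl/fl library held 19374767 estimated reads and that of K5.Pp6fl/fl 17361259. Ppp6c itself had 1074 and 707 reads, a fold of 0.733 (0.665 to 0.806), and 30.6 and 16.8 FPKM, a fold of 0.548, so most of its reads were still present in the library labelled K5.Pp6fl/fl. The table has no values per exon, so reads outside the deleted part and reads of cells that kept the gene cannot be told apart. Of the 6 basal keratinocyte markers all were expressed, with summed levels of 56986 and 53398 CPM, 0 intervals above 1 and 5 below; the transcription factor Trp63, which activates Perp and other adhesion genes, had a fold of 0.776 (0.759 to 0.793). The 3 granular and cornified markers Lor, Flg and Ivl were all higher, with summed levels of 52.1 and 73.5 CPM, and the spinous keratins Krt1 and Krt10 summed to 34.2 and 28.6 CPM. Of 25 markers of fibroblasts, melanocytes, endothelium, immune cells, Merkel cells, adipocytes and Schwann cells, 3 were expressed, all from melanocytes, and the 25 summed to 7.03 and 13.1 CPM. The simple-epithelium keratins Krt8, Krt18 and Krt19 were all expressed and summed to 10.7 and 13.7 CPM, a fold of 1.27 (1.05 to 1.54), with Krt8 past the 1.3-fold rule (1.51, 1.08 to 2.11). The part of these shifts in the junction results was not tested. In bulk RNA fewer cells of a type and less RNA per cell cannot be told apart.

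The promoters of 3 of the genes with the larger differences are shown here, because these genes were all higher in the K5.Pp6fl/fl library. They are the 250 bases before the transcription start from RefSeq (GRCm38.p6), 5′ to 3′ along each gene's strand, and capitals mark the motif matches described after them.
Epcam, chr17:87635729-87635978, + strand: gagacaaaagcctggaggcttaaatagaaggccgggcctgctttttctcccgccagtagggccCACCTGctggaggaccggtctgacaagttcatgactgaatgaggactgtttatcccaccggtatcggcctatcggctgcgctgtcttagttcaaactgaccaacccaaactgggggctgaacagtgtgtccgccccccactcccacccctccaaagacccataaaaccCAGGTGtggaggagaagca
Cldn1, chr16:26371840-26372089, - strand: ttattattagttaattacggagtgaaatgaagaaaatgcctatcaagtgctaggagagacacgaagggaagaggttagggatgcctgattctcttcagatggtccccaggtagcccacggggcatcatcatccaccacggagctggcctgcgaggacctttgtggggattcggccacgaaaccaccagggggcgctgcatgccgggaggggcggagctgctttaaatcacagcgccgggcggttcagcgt
Cldn4, chr5:134946935-134947184, - strand: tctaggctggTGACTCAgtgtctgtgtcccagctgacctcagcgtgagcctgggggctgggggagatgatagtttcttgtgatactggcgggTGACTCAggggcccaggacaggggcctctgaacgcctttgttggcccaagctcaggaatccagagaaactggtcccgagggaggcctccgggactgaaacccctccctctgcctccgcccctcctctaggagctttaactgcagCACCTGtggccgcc

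Windows of this kind were found for 24 of the 40 junction genes, 33 windows in all, since some genes have several starts. On both strands 4 motifs were searched: TGANTCA, bound by AP-1 factors; CACCTG, an E-box bound by Snail and Zeb repressors; AACCNGTT, bound by grainyhead-like factors; and GGGCGGG, the GC box. The Cldn4 window held TGACTCA starting 240 and 158 bases before the start and CACCTG 14 bases before it. The Epcam window held the E-box at 187 bases and, on the other strand, at 19 bases. The Cldn1 window held none of the 4. The AP-1 motif was in 3 of the 33 junction windows (those of Cldn4, F11r and Gja1) and in 6.75% of all 32851 windows. The E-box was in 12 and in 17.2% of all, the grainyhead-like motif in 2 (Cgn and Gjb6) and in 1.79%, and the GC box in 13 and in 23.4%. A match describes letters in the window and shows no binding.

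Transcript levels per length, as FPKM, the deposited fragment counts per kilobase scaled to library size, differed widely between the junction genes. Perp, a tetraspan membrane protein that desmosomes need, was the highest, at 2242 FPKM in Pp6fl/fl and 2342 in K5.Pp6fl/fl, rank 26 among expressed genes in the Pp6fl/fl library. Plakophilin-1, desmoplakin and plakoglobin followed, with Pkp1 at 771 and 797 FPKM, Dsp at 734 and 752 and Jup at 706 and 739. The highest adherens junction gene was Cdh1, at 183 and 199 FPKM, followed in Pp6fl/fl by Ctnna1 (173 FPKM in each library) and in K5.Pp6fl/fl by Ctnnb1 (170 and 196 FPKM). Among tight junction genes Cldn1 (138 and 239 FPKM) and Cldn4 (126 and 196) led, and among connexins Gja1 (96.4 and 100.3). At the other end Tjp3, Cldn23, Cldn7 and Pkp2 were all under 1 FPKM in the Pp6fl/fl library.

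**Figure D1:**
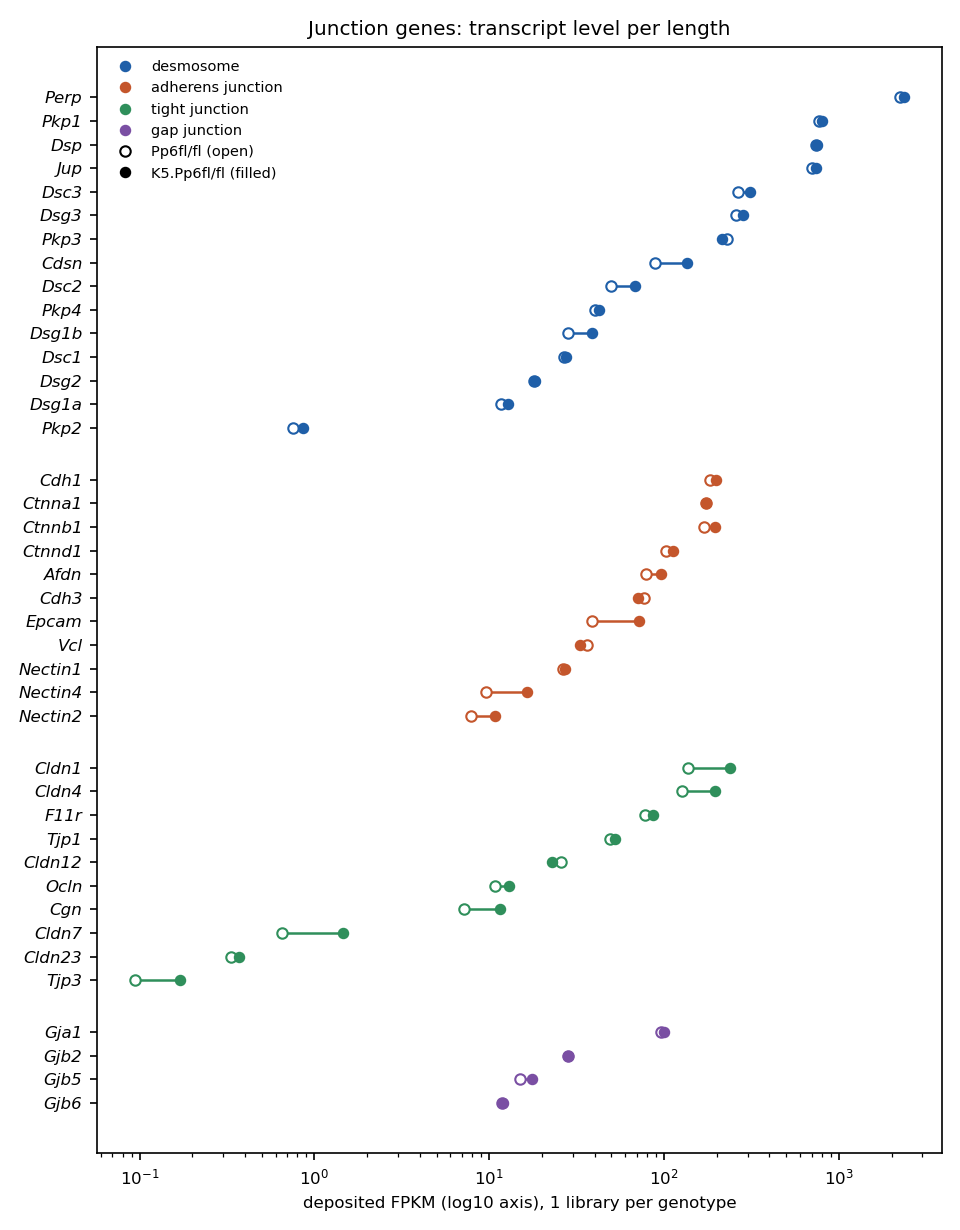
Deposited FPKM of each of the 40 junction genes on a log10 axis, open circles for the Pp6fl/fl library and filled circles for the K5.Pp6fl/fl library, grouped by junction type; there is 1 library per genotype and no error bar. Levels ran from 0.095 FPKM for Tjp3 to 2242 FPKM for Perp in Pp6fl/fl, and the widest gaps between well-expressed pairs of circles were those of Epcam, Nectin4, Cldn1, Cgn, Cldn4 and Cdsn.

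Among desmosomal cadherins the basal isoforms prevailed in each library. Dsg3, the desmoglein of the lower layers and a target of pemphigus vulgaris antibodies, made up 81.5% of the summed desmoglein FPKM in Pp6fl/fl and 80.2% in K5.Pp6fl/fl. Dsc3, the matching basal desmocollin, made up 77.6% and 76.5% of the desmocollin FPKM. All 7 desmosomal cadherin genes had a log2 ratio above 0, between 0.03 and 0.49, and 5 of the intervals lay above 1. Summed over the 7, reads came to 2855 and 3291 CPM, with a fold of 1.15 (1.14 to 1.17).

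Dsg3 had 18958 reads in Pp6fl/fl and 18649 in K5.Pp6fl/fl, or 979.8 and 1073 CPM, with a fold of 1.09 (1.07 to 1.12). Dsc3 had 25763 and 26899 reads, a fold of 1.16 (1.14 to 1.18). Dsg2, the desmoglein found most widely across epithelia, had 1708 and 1579 reads and a fold of 1.03 with an interval that included 1 (0.96 to 1.10). These 3 basal or widespread isoforms thus differed by little, with the K5.Pp6fl/fl value on the higher side for Dsg3 and Dsc3.

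Desmoglein-1, the isoform of the upper layers and the antigen of pemphigus foliaceus, is encoded in the mouse by near-identical copies that share reads. Dsg1b had 2013 and 2471 reads (104 and 142 CPM), with a fold of 1.37 (1.29 to 1.45). Dsg1a had 1222 and 1202 reads, 63.2 and 69.1 CPM, with a fold of 1.09 (1.01 to 1.19). Because reads may be split between the copies, the sum of Dsg1a, Dsg1b and Dsg1c is the safer value, at 169 and 213 CPM, with a fold of 1.26 (1.2 to 1.32), short of the 1.3-fold rule that Dsg1b alone passed. The ratio of Dsg1a plus Dsg1b reads to Dsg3 reads went from 0.171 to 0.197, a change of 1.15-fold (1.10 to 1.22) that no scaling of the libraries affects.

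Dsc2, a desmocollin present through all living layers, had 3768 and 4767 reads (195 and 274 CPM), with a fold of 1.41 (1.35 to 1.47). Dsc1, the desmocollin of the upper layers, was close to equal. It had 1806 and 1652 reads and a fold of 1.02 (0.952 to 1.09). The Dsc2 to Dsc3 read ratio changed by a factor of 1.21 (1.16 to 1.27), while the Dsc1 to Dsc3 ratio changed by a factor of 0.876 (0.818 to 0.939). Within the desmocollins the balance in K5.Pp6fl/fl thus leaned towards Dsc2, and the upper-layer isoform Dsc1 took a smaller share.

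The desmosome plaque was close to equal. Its 6 genes had a median log2 ratio of 0.04 and summed to 11765 and 12035 CPM, with a fold of 1.02 (1.02 to 1.03), and none passed the 1.3-fold rule. Desmoplakin, which anchors keratin filaments, was at 6471 and 6596 CPM, with a fold of 1.02 (1.01 to 1.03). Pkp1, the plakophilin of the upper layers, was at 3277 and 3392 CPM, with a fold of 1.04 (1.02 to 1.05), and Jup, which encodes plakoglobin, at 1438 and 1512 CPM, with a fold of 1.05 (1.03 to 1.07). Pkp3, a plakophilin of all layers, was the lower member, at 504 and 462 CPM, with a fold of 0.916 (0.889 to 0.943). Pkp4 (0.983, 0.910 to 1.06) and Pkp2 (1.21, 0.747 to 1.95, from 36 and 39 reads) had intervals that included 1. The ratio of Pkp1 to Pkp3 reads changed 1.13-fold (1.09 to 1.17), and Perp had a fold of 1.04 (1.03 to 1.05).

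Corneodesmosin, Cdsn, is secreted in the granular layer and added to desmosomes as they become the corneodesmosomes of the stratum corneum. It had 4074 and 5580 reads (211 and 321 CPM), with a fold of 1.52 (1.46 to 1.59). The ratio of Cdsn to Dsp reads changed 1.5-fold (1.44 to 1.56). Cdsn ranked 50 of the 4538 genes at 50 CPM or more by log2 ratio. It was the listed desmosome gene with the highest ratio. Cdsn is also counted among genes of the granular layer, whose 3 markers differed in the same direction. Of these, Lor had 88 and 186 reads, Flg 49 and 74, and Ivl 872 and 1017. A link between Cdsn and these markers was not tested.

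**Figure D2:**
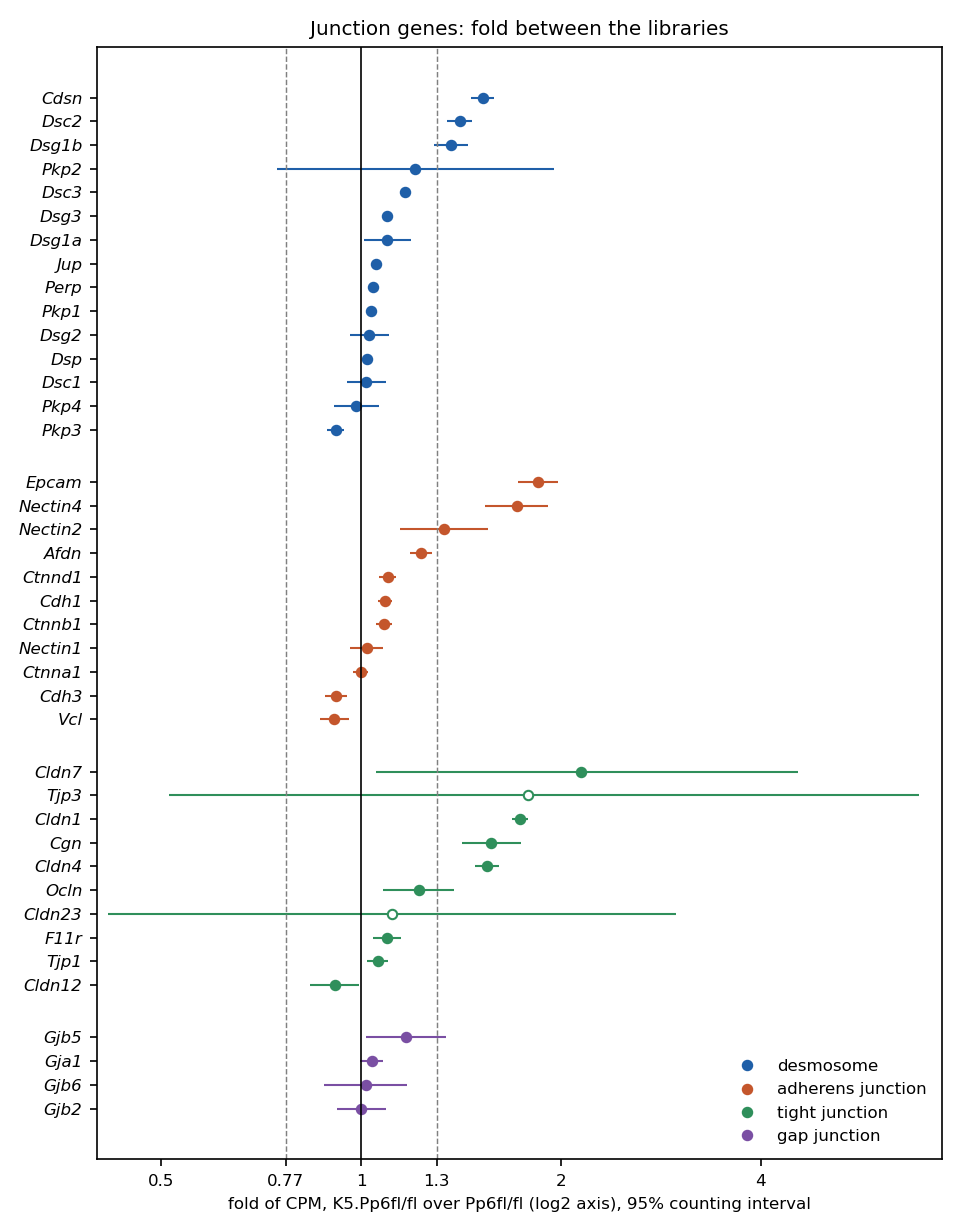
Fold of CPM for each junction gene, with Pp6fl/fl as the denominator, on a log2 axis, with lines for the 95% counting interval and dashed lines at the 1.3-fold rule; open circles are genes under 1 CPM in both libraries. The 10 genes past the rule are all on the right, with Epcam at 1.84, Cldn1 at 1.73 and Nectin4 at 1.72, while the gap junction genes lie between 1.0 and 1.17.

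Of the 11 adherens junction genes 3 passed the 1.3-fold rule, all higher, and the median log2 ratio was 0.12. The core of the junction was nearly equal. E-cadherin, Cdh1, had 13961 and 13628 reads (722 and 784 CPM), with a fold of 1.09 (1.06 to 1.11). P-cadherin, Cdh3, which is a cadherin of the basal layer in skin, had 5483 and 4514 reads (283 and 260 CPM), with a fold of 0.916 (0.881 to 0.953). The 2 cadherins thus lay on opposite sides of 1, and the ratio of Cdh1 to Cdh3 reads went from 2.55 to 3.02, a change of 1.19-fold (1.13 to 1.24).

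The catenins link cadherins to actin and sum to 1623 and 1714 CPM, with a fold of 1.06 (1.04 to 1.07). Ctnna1, α-catenin, was at 588 and 587 CPM (0.998, 0.972 to 1.03). Ctnnb1, β-catenin, which is also the effector of Wnt signalling, was at 553 and 599 CPM (1.08, 1.05 to 1.11), and by FPKM at a fold of 1.15. Ctnnd1, p120-catenin, which keeps cadherins at the membrane, was at 481 and 528 CPM (1.10, 1.07 to 1.13). Vcl, vinculin, an actin linker at junctions under tension, was lower, at 179 and 163 CPM (0.911, 0.866 to 0.957), but its exons overlap those of Ap3m1 on the opposite strand, which had 3323 and 2888 reads, and these libraries do not mark strand.

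The nectins are immunoglobulin-like adhesion molecules that start contacts before cadherins gather, and afadin (Afdn) ties them to actin. Nectin4 had 551 and 849 reads (28.5 and 48.8 CPM), with a fold of 1.72 (1.54 to 1.91). Nectin2 had 311 and 372 reads, a fold of 1.33 (1.14 to 1.55), and overlaps the gene model Gm20512 on the opposite strand, which had 30 and 23 reads. Nectin1, the most abundant of the 3, had 2440 and 2234 reads and a fold of 1.02 (0.962 to 1.08). Nectin4 made up 21.9% of the nectin FPKM in Pp6fl/fl and 30.3% in K5.Pp6fl/fl, and the share of Nectin1 went from 60.2% to 49.9%. Afdn was at 269 and 330 CPM, with a fold of 1.23 (1.18 to 1.28), just short of the 1.3-fold rule.

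Epcam, an epithelial adhesion molecule that binds and stabilises claudins, had the highest fold of the junction genes at 5 CPM or more. It had 1306 reads in Pp6fl/fl and 2164 in K5.Pp6fl/fl, or 67.5 and 124 CPM, with a fold of 1.84 (1.72 to 1.98). By log2 ratio it ranked 9 of the 4538 genes at 50 CPM or more. In the epidermis Epcam also marks Langerhans cells, the resident antigen-presenting cells. Their marker Cd207 and the leukocyte genes Ptprc and Cd74 had 0 reads in each library, and the 5 immune markers together reached 0 and 0.0575 CPM.

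Among the 40 genes, those of tight junctions had the highest median of the 4 types, a log2 ratio of 0.46 over 8 expressed genes, of which 4 passed the 1.3-fold rule. This holds for the listed genes and not for the type at large: 14 other expressed tight junction genes had a median of 0.03. The median of the listed tight junction genes was lower, at 0.28, when genes under 5 CPM were left out, which removes Cldn7. Summed over the 10 genes, reads came to 1191 and 1647 CPM, with a fold of 1.38 (1.36 to 1.41). Most of that difference came from Cldn1 (406 and 703 CPM) and Cldn4 (191 and 295 CPM). For the 15 desmosome genes the sum had a fold of 1.05 (1.05 to 1.06), for the 11 adherens junction genes 1.08 (1.07 to 1.09) and for the 4 connexins 1.04 (1.0 to 1.07).

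Cldn1, the claudin whose loss in mice opens the epidermal water barrier, had 7847 reads in Pp6fl/fl and 12219 in K5.Pp6fl/fl, or 406 and 703 CPM, with a fold of 1.73 (1.68 to 1.78). It ranked 18 of the 4538 genes at 50 CPM or more. Cldn4, a claudin of the granular layer, had 3687 and 5125 reads (191 and 295 CPM), with a fold of 1.55 (1.48 to 1.61), rank 44. Together the claudins went from 290 to 460 FPKM, with Cldn1 at 47.4% and 52.1% of that sum. The Cldn4 to Cldn1 read ratio changed by a factor of 0.893 (0.848 to 0.939), so the difference was somewhat larger for Cldn1.

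The other claudins did not all share the direction. Cldn12 had 1189 and 974 reads, 61.4 and 56.0 CPM, with a fold of 0.912 (0.837 to 0.993). Cldn7, which forms a complex with Epcam, rested on 13 and 25 reads, at 2.14-fold, and its interval was wide (1.05 to 4.56), and a log2 ratio of 0.73 after the added 0.5 CPM kept it under the 2-fold rule. Cldn23 had 10 reads in each library, so no difference was detectable at this depth.

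Cgn, cingulin, which links the tight junction plaque to the cytoskeleton, had 640 and 903 reads (33.1 and 51.9 CPM), with a fold of 1.57 (1.42 to 1.74). Tjp1, the plaque scaffold ZO-1, was at 301 and 319 CPM (1.06, 1.02 to 1.10), and Tjp3 rested on 5 and 8 reads and overlaps Apba3 on the opposite strand. Ocln, occludin, had 507 and 556 reads, or 26.2 and 32 CPM (1.22, 1.08 to 1.38), and F11r, which encodes the adhesion molecule JAM-A, was at 172 and 188 CPM (1.10, 1.04 to 1.15). The Ocln to Tjp1 read ratio changed 1.15-fold (1.02 to 1.31).

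**Figure D3:**
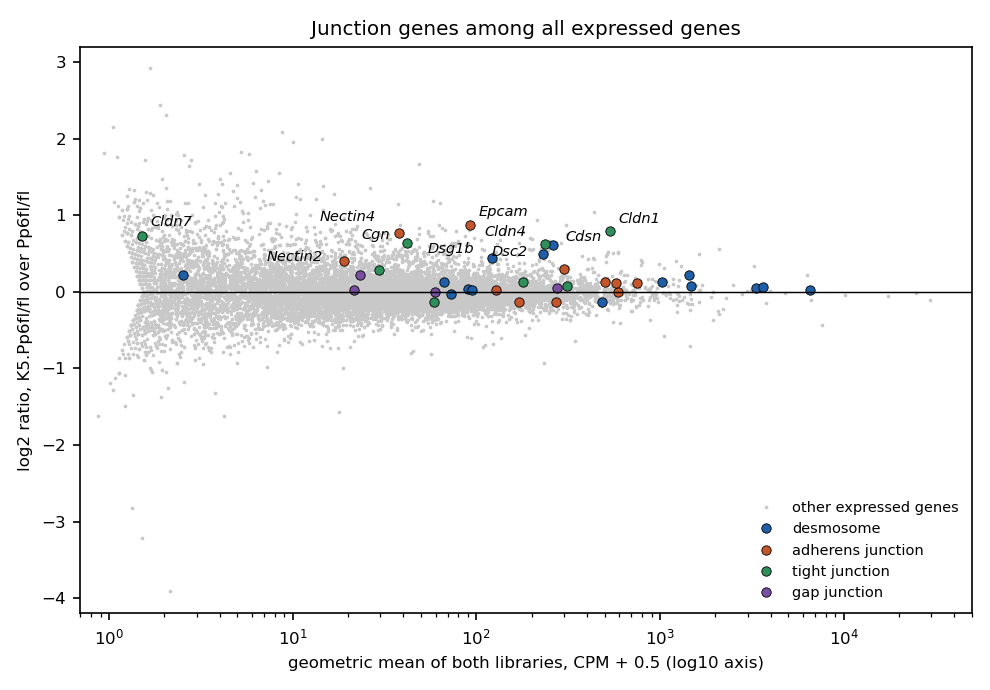
Log2 ratio of each expressed gene against the geometric mean of both libraries in CPM plus 0.5 (log10 axis), with the 38 expressed junction genes coloured by type over all other expressed genes in grey; the 10 past the 1.3-fold rule are named. Epcam, Cldn1, Cldn4 and Cdsn, with log2 ratios from 0.61 to 0.88, sit at the upper edge of the cloud at their level, and most desmosome genes sit near 0.

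Connexins, the subunits of gap junction channels, had the lowest median of the 4 junction types, a log2 ratio of 0.04, and none passed the 1.3-fold rule. Gja1, connexin 43, had 5232 and 4874 reads (270.4 and 280.4 CPM), with a fold of 1.04 (0.997 to 1.08). Gjb2, connexin 26, which is mutated in inherited deafness with or without skin disease, was at 59.0 CPM in each library, a fold of 1.0 (0.918 to 1.09). Gjb6, connexin 30, had 403 and 368 reads and a fold of 1.02 (0.880 to 1.17). Gjb5, a connexin of suprabasal cells, had 409 and 429 reads and a fold of 1.17 (1.02 to 1.34), the 1 connexin with an interval above 1. Shares of the connexin FPKM were alike, with Gja1 at 63.8% and 63.5%.

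Sorted by the layer of the epidermis in which each gene is known to be expressed, the 8 upper-layer genes all had log2 ratios above 0, from 0.03 to 0.63, with a median of 0.25. The 10 genes of all living layers ran from -0.13 to 0.79 with a median of 0.09, and the 4 basal genes from -0.13 to 0.22, also with a median of 0.09. The lists overlap in their values: Pkp1 and Dsc1, both of the upper layers, were at 0.05 and 0.03, while Cldn1, of all living layers, was at 0.79. By sum, the upper-layer genes had a fold of 1.10 (1.09 to 1.11) and the basal genes 1.11 (1.09 to 1.12), because abundant members weigh most. The higher value of the upper-layer genes is thus seen in the median and not in the sum, and the other medians were alike. The remaining 18 members were assigned to no layer. Of these, 16 were expressed, with a median of 0.11, and 5 were past the 1.3-fold rule, among them Epcam and Nectin4.

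**Figure D4:**
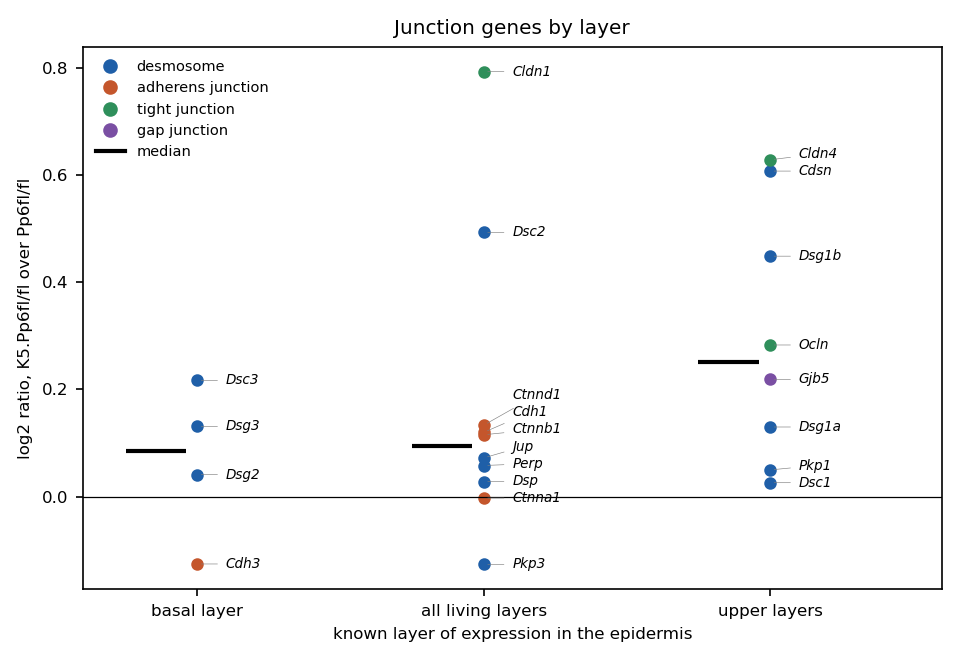
Log2 ratio, K5.Pp6fl/fl over Pp6fl/fl, of the 22 junction genes with a known layer of expression, in columns for the basal layer, all living layers and the upper layers, coloured by junction type, with a bar at each median. Medians were 0.09, 0.09 and 0.25, and the upper-layer column alone has no gene below 0.

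Other junction genes had no common direction. Of 76 such genes, taken by function from the same 4 junction types, 35 were expressed, with a median log2 ratio of -0.05, close to that of all expressed genes. The difference between this list and the 40 genes was not tested. By type they did not follow the order of the 40. The 4 other desmosome genes, all expressed, had a median of 0.36 and a summed fold of 1.34 (1.3 to 1.38). The other adherens junction genes, 14 of 19 expressed, had a median of -0.12 and a summed fold of 0.886 (0.872 to 0.900). The other tight junction genes, 14 of 34 expressed, had a median of 0.03 and a summed fold of 0.965 (0.946 to 0.985), and the other gap junction genes, 3 of 19 expressed, a summed fold of 1.0 (0.963 to 1.04). Of these, 3 were past the 1.3-fold rule and higher, 8.57%, and 2 lower. The higher genes were Cldn3, a barrier claudin of simple epithelia, with 49 and 90 reads (2.04-fold, 1.43 to 2.96), Cadm4, an immunoglobulin-like adhesion molecule, with 94 and 165 reads (1.95-fold, 1.51 to 2.54), and periplakin, Ppl. Periplakin, a plakin of the desmosome and the cornified envelope, was at 203 and 298 CPM (1.47-fold, 1.41 to 1.53), and its partner envoplakin, Evpl, at 209 and 254 CPM (1.22-fold, 1.17 to 1.27).

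The lower genes were Tjap1, a tight junction associated protein, with 3009 and 1680 reads, or 156 and 96.6 CPM (0.621-fold, 0.585 to 0.660), and the vinculin-binding adaptor Sorbs3, with 69 and 39 reads (0.629-fold, 0.414 to 0.945). Zyx, Lima1 and Tjap1 were among the 4 other junction genes with the highest FPKM. Zyxin, Zyx, an actin regulator at junctions and focal adhesions, was at 438 and 357 CPM (0.816, 0.790 to 0.843), and Lima1, an actin-bundling protein that binds α-catenin, at 757 and 639 CPM (0.844, 0.824 to 0.865). Neither passed the 1.3-fold rule.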

How the data were processed

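The 2 libraries were grouped by the genotype label. Per the labels' protocols, oligo(dT)-captured RNA was made into libraries with a TruSeq kit, which does not mark strand; the submitters' processing notes list RSEM, edgeR and build mm8 with no role given. The estimated counts deposited by the authors are multiplied by a constant per library; 97.4% of values under 100 reads in each column were whole within 0.01 reads after division by it, and these reads were used, rounded. FPKM values, a log2 fold change and p-values with FDR were also deposited by the authors, and per the file headers compare cKOmKC with PP6fl_flmKC. Symbols were matched by Ensembl ID for 47219 of 47719 genes.

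CPM used TMM-scaled library sizes (edgeR 4.0.16, R 4.3.3). Fold intervals are exact conditional binomial (Clopper-Pearson); intervals of changes in a read ratio are Wald intervals on the log scale, for 13 pairs. In the GENCODE M21 annotation exons of 9 members overlap other genes; the overlapping gene's reads exceed 5% of the member's for Vcl, Tjp3 and Nectin2. The calculation was tested on simulated data. Full values are given for genes past the 1.3-fold rule, the 2 highest by FPKM per junction type, the fixed pairs and the 2 largest ratios per layer; other junction genes are named when past the rule or among the 4 highest by FPKM, of which 1 is not reported here. Other genes named beside these, such as Evpl and Trp63, were chosen after their values were seen. The members and lists were chosen with earlier results of these data known.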

Additional observations from a re-analysis of the deposited data

How the results depend on the processing

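Pseudocounts of 0.1 and 2 CPM, scaling by library totals, DESeq2 size factors or upper quartile, and floors of 5 CPM or none were tried. FPKM was also used in place of counts. None of these settings put a listed junction gene 1.3-fold lower or 2-fold apart. The number 1.3-fold higher stayed between 8 and 10. A pseudocount of 2 CPM took Nectin2 (log2 ratio 0.37) and Cldn7 (0.36) below the 1.3-fold rule, and Cldn7 was not counted at a floor of 5 CPM. No scaling moved the median of all expressed genes by more than 0.01. The tight junction median of 0.46 became 0.32 with a pseudocount of 2 CPM, 0.28 at a floor of 5 CPM and 0.31 without a floor. The median of the 4 basal genes lay between 0.041 and 0.13 when 1 of them was left out. Among the other junction genes 1 was 1.3-fold lower at a floor of 5 CPM, and 1 was 2-fold higher with a pseudocount of 0.1 CPM. No paired analysis was possible because each genotype has 1 library. The single library per genotype limits every fold here, and under 5 CPM depth limits it too.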
